A study of Homo sapiens with 32 samples.

Results

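The library contained 22 sgRNAs against EGFP, the green fluorescent protein fused to the activity recorder that was screened. They were found as the rows of the deposited count table whose target was EGFP, and they made up 22 of the 74987 sgRNAs in the table. Each sgRNA is named here by the number that ends its identifier (CONTROL_C_EGFP_1 to CONTROL_C_EGFP_22), which carries no order. The cells were RKO, a human colon carcinoma cell line, and the library knocked out genes with CRISPR in a pooled format. Every cell in every group carried KinprolaPKA, a recorder of protein kinase A activity, together with the Cas9 nuclease on a single lentiviral construct. These cells had been selected with blasticidin and sorted for EGFP before the sgRNA library was introduced with puromycin selection. On day 6 after transduction the cells were labeled for 30 min with CPY-CA, a far-red HaloTag substrate, and sorted by the ratio of CPY-CA to EGFP fluorescence into high (about 25% of cells), medium (about 50%, labelled basal) and low (about 25%) populations. T0 was the day 0 control of the library. Replicates 2 and 3 of the labels were 2 independent screens, and each gave 1 library of T0, low, medium and high, so that n = 2 for each population and 8 libraries in all. The gating scheme of the study took live, single, GFP-positive cells before the ratio gates, and no such gate is described for T0. The sources used here do not give the number of recorder copies per cell.

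The recorder is a split HaloTag whose parts come together when protein kinase A is active, and the substrate that is present at that moment then stays covalently bound. EGFP sits on the same polypeptide and is the denominator of the sorted ratio, because it reports how much recorder a cell holds. Cas9 directed to the EGFP coding sequence can disrupt the open reading frame of the transgene and so can lower the denominator. EGFP is not a human gene, and no genome position applies to these sgRNAs. The 22 sgRNAs share that 1 target and are not replicates of a condition, so conditions were compared over screens and each sgRNA was followed separately.

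The 8 libraries held 23369720 to 31777138 reads, with a median of 260 to 356 reads per sgRNA. Between screens the counts of a population differed by 5.76 to 7.34 times the variance of sampling alone, whereas the 4 sequencing lanes of a library differed by 1.02 to 1.03 times. Reads were scaled to the mean library total, and all values called scaled reads below are on this linear scale. At T0 the EGFP sgRNAs were measured well, with medians of 345 and 292 raw reads in replicates 2 and 3 and none of the 22 at or below 10 reads. Their medians were 16 and 10 raw reads in low, 32.5 and 27 in medium, and 87.5 and 63.5 in high. In low, 10 and 11 of the 22 had 10 or fewer reads, against 0.712% and 0.862% of all sgRNAs, so ratios that rest on the low libraries are the least precise. The reads are PCR products without molecular identifiers, and the floor of 3 counts used below therefore covers counting error only.

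The EGFP sgRNAs became rare between T0 and the sorted populations. Together they held 0.0295% and 0.0303% of all reads at T0 in replicates 2 and 3. In high they held 0.0117% and 0.0112%, in medium 0.00796% and 0.00771%, and in low 0.00632% and 0.0059%. Both screens gave the same order of T0, high, medium and low, and the values of neighbouring populations did not overlap. Summed scaled reads went from 8174 and 8384 at T0 to 3235 and 3094 in high, 2204 and 2135 in medium and 1749 and 1635 in low. Relative to T0, this left 39.6% and 36.9% in high, 27.0% and 25.5% in medium and 21.4% and 19.5% in low. When the populations were weighted by the share of cells in their gates (0.25, 0.5 and 0.25), 28.7% and 26.8% of the EGFP reads at T0 were recovered in the sorted cells. The same weighting recovered 116% and 119% for the 278 sgRNAs without a target (nontargeting, LacZ and luciferase). For the 50 sgRNAs against AAVS1, a safe-harbor locus in the human genome that controls for DNA cutting, it recovered 92.4% and 101%.

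Averaged over its 22 sgRNAs on the log2(scaled reads + 1) scale, the EGFP entry was lower in the sorted cells than at T0 by a mean log2 difference of -2.88 (SE 0.09, n = 2 screens, limma adjusted p = 1.88e-09), with -2.78 in replicate 2 and -2.99 in replicate 3. That was a 7.38-fold decrease. Among the 18659 entries of the library, 8.09% were called lower in this comparison, and EGFP ranked 82 from the lowest. Entries with an Ensembl gene identifier had a median of 4 sgRNAs, against 22 for EGFP. Ranks and borrowed spread here and below therefore compare means over unequal numbers of sgRNAs. The decrease was present in each sorted population. The log2 difference from T0 was -1.89 in high (SE 0.11, limma adjusted p = 1.22e-06), where 5.42% of entries were called lower. It was -2.89 in medium (SE 0.12, limma adjusted p = 3.44e-07; 6.95% of entries) and -3.86 in low (SE 0.11, limma adjusted p = 4.1e-09; 8.54% of entries). In low the EGFP entry ranked 36 from the lowest of the 18659. These comparisons share the T0 libraries, so their values are given side by side and are not independent of each other. After the mean of the sgRNAs without a target was subtracted in each screen, the sorted cells differed from T0 by -3.10 (SE 0.10, limma adjusted p = 2.93e-17), in a fit that called 34.9% of entries lower. After subtraction of the AAVS1 mean, the difference was -2.42 (SE 0.11, limma adjusted p = 9.38e-11), with 4.59% of entries called lower and 88.4% called higher. The AAVS1 entry itself was lower in the sorted cells than at T0 by -0.46 (limma adjusted p = 0.00555). Whether the EGFP sgRNAs were lost from the culture or their cells were kept out by the GFP-positive gate cannot be told apart, because the sorted libraries, and not T0, are described as gated.

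Tested one by one with edgeR, 19 of the 22 EGFP sgRNAs were lower in the sorted cells than at T0 and none was higher, against 6.29% of all sgRNAs tested that were called lower. The exceptions were sgRNAs 15, 16 and 22. Of the 50 AAVS1 sgRNAs 10 were called lower and 1 higher. Of the 275 tested sgRNAs without a target 0 were called lower and 24 higher. Both T0 libraries exceeded all 6 sorted libraries for 17 of the 22, against 8.22% of all sgRNAs. For each population set against T0, edgeR called 15 lower in high (3.52% of all sgRNAs), 19 lower in medium (5.17%) and 18 lower in low (5.92%). The percentage of T0 recovered, from the gate-weighted scaled reads, had a median of 9.69% over the 22 EGFP sgRNAs and a range of 4.56% to 132%. The median was 118% for sgRNAs without a target, 100% (100.23%) for AAVS1 and 103% for all sgRNAs. Of the EGFP sgRNAs 15 were recovered at under 20% of T0, against 4 of the 50 AAVS1 sgRNAs, 0 of the 277 sgRNAs without a target that had reads at T0, and 0.84% of all sgRNAs. The 22 sgRNAs thus fell into a large set that nearly disappeared, 4 that were recovered at intermediate levels, and 3 that were not called lower. This division follows the recovery values and is a description.

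The 15 sgRNAs recovered at under 20% ranged from 4.56% to 15.98% of T0 (mean of the screens), with a median of 8.20%. In what follows the first value of a pair is replicate 2 and the second is replicate 3, in scaled reads. The most abundant was sgRNA 21, with 1399 and 1625 at T0, 186 and 192 in high, 142 and 89.6 in medium and 67.3 and 39.5 in low. Its decrease relative to T0 had the smallest p of the 22 (edgeR adjusted p = 9.99e-47). For sgRNA 19 the values were 777 and 883 at T0, 103 and 80.6 in high, 72.0 and 72.5 in medium and 36.3 and 18.6 in low. For sgRNA 10 they were 509 and 303 at T0, 69.7 and 61.6 in high, 20 and 21.3 in medium and 21.4 and 16.4 in low. All 3 had more reads in high than in any other sorted population of the same screen. For sgRNA 1, T0 held 483 and 581, high 112 and 133, medium 27.3 and 28.8 and low 52.3 and 35.1. It was the sgRNA with more reads in low than in medium in both screens. For sgRNA 20, T0 held 410 and 547, high 54.0 and 32.0, medium 38.3 and 17.1 and low 7.5 and 3.3. For sgRNA 2, T0 held 357 and 306, high 82.8 and 69.9, medium 28.2 and 12.8 and low 12.8 and 4.4. Both were ordered T0, high, medium, low in each screen.

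Among the remaining sgRNAs of this set, sgRNA 11 had the lowest recovery, 5.75% and 3.38%. Its reads were 352 and 259 at T0, 28.8 and 28.4 in high, 21.9 and 1.1 in medium and 8.5 and 4.4 in low. The medium libraries of the 2 screens were far apart for it, at 24 and 1 raw reads. For sgRNA 12 the reads were 296 and 346 at T0, 41.8 and 43.8 in high, 31.0 and 25.6 in medium and 6.4 and 3.3 in low. For sgRNA 4 they were 305 and 344 at T0, 54.9 and 43.8 in high, 11.8 and 19.2 in medium and 7.5 and 12.1 in low. For sgRNA 8 they were 267 and 189 at T0, 64.5 and 92.4 in high, 20 and 29.9 in medium and 9.6 and 8.8 in low. These 3 repeated the order high, medium, low in both screens, and sgRNA 8 had the highest recovery of the set. For sgRNA 17, T0 held 158 and 131, high 40.1 and 24.9, and medium 8.2 and 5.3, while no read was found in low in either screen. For sgRNA 7, T0 held 115 and 166, high 30.5 and 8.3, medium 6.4 and 1.1, and low 0.0 and 2.2. These are the sgRNAs for which low was emptiest, at 0 and 0 raw reads for sgRNA 17 and 0 and 2 for sgRNA 7.

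The other 3 sgRNAs of the set were unevenly distributed among the sorted populations. For sgRNA 5 the reads were 213 and 231 at T0, 9.6 and 34.4 in high, 25.5 and 28.8 in medium and 22.4 and 2.2 in low. Its order of high and low was opposite in the 2 screens. For sgRNA 3 they were 173 and 122 at T0, 13.1 and 24.9 in high, 9.1 and 12.8 in medium and 10.7 and 4.4 in low. For sgRNA 9, the rarest of the 22, they were 43.6 and 36.8 at T0, 3.5 and 5.9 in high, 3.6 and 3.2 in medium and 0.0 and 8.8 in low. The order of high and low was opposite in the 2 screens for sgRNA 9 as well, and its fall against T0 had an edgeR adjusted p of 0.00217 over all sorted populations and 0.0672 in low alone.

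The sgRNAs 6, 13, 14 and 18 were recovered at intermediate levels, from 31.9% (sgRNA 6) and 36.3% (sgRNA 13) to 66.7% (sgRNA 14) and 68.3% (sgRNA 18) of T0. For sgRNA 6 the reads were 248 and 200 (199.5) at T0, 172 and 143 in high, 71.0 and 49.1 in medium and 6.4 and 9.9 in low. For sgRNA 13 they were 418 and 333 at T0, 185 and 224 in high, 112 and 147 in medium and 89.7 and 51.5 in low. Both were ordered T0, high, medium, low in each screen. For sgRNA 14 they were 665 and 687 at T0, 692 and 549 in high, 451 and 426 in medium and 274 and 337 in low. For sgRNA 18 they were 166 and 186 at T0, 257 and 236 in high, 76.5 and 98.1 in medium and 63.0 and 53.7 in low. In high, sgRNA 18 thus exceeded its T0 value in both screens, although this difference was not called (log2 fold change 0.48, SE 0.29, edgeR adjusted p = 0.501). In low it was below T0 by -1.60 (SE 0.31, edgeR adjusted p = 4.75e-05). Neither sgRNA 6 (log2 fold change -0.51, SE 0.32) nor sgRNA 14 (-0.13, SE 0.15) was called lower in high than at T0, with edgeR adjusted p = 0.544 and 0.818, whereas both were called lower in medium and in low.

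The 3 sgRNAs that were not called lower had more reads in each sorted library than in T0 of the same screen, except for sgRNA 22 in high and medium of replicate 3. For sgRNA 15 the reads were 421 and 464 at T0, 518 and 553 in high, 505 and 566 in medium and 523 and 504 in low. For sgRNA 16 they were 286 and 295 at T0, 349 and 367 in high, 321 and 340 (340.3) in medium and 370 (369.5) and 307 in low. For sgRNA 22 they were 116 and 150 (150.4) at T0, 169 and 146 in high, 203 and 140 (139.7) in medium and 160 (160.2) and 209 in low. Their recovery was 122% and 118%, 119% and 115%, and 159% and 105%, with edgeR adjusted p = 0.319, 0.57 and 0.487 against T0. The 3 sgRNAs summed were recovered at 126% and 115%, beside 116% and 119% for the sgRNAs without a target. The reads of these 3 sgRNAs summed to 10.1% and 10.8% of all EGFP reads at T0 but to 32.0% and 34.5% in high, 46.7% and 49.0% in medium and 60.2% and 62.4% in low. The 15 sgRNAs recovered at under 20% went the other way, from 71.6% and 72.4% of the EGFP reads at T0 to 27.6% and 28.3% in high and 15.02% and 10.0% in low. A sum over all EGFP reads in low was therefore mostly a sum over 3 sgRNAs.

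The recovery of some sgRNAs differed between screens, as for sgRNA 7 at 9.4% and 1.90% and sgRNA 9 at 6.18% and 14.3% of T0. Over the 22 sgRNAs, which share a target and were counted in the same libraries, the log2 differences of sorted cells from T0 in the 2 screens had Pearson's r = 0.92 and Spearman's rho = 0.77. The amount of an sgRNA at T0, which spanned 37.6-fold, had r = -0.04 and rho = -0.10 with its recovery on log2 scales.

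What remained of the EGFP sgRNAs lay toward the high ratio of CPY-CA to EGFP. Of the recovered, gate-weighted EGFP reads 34.4% and 34.4% lay in high, 46.9% and 47.5% in medium and 18.6% and 18.2% in low. The shares of the sgRNAs without a target were 23.9%, 50.6% and 25.5% (means of the screens), and those of AAVS1 were 24.3%, 50.5% and 25.3%. For the 19 EGFP sgRNAs that were lower than T0, 41.9% and 42.1% lay in high and 13.3% and 12.8% in low, so that their summed reads were 3.16 and 3.30 times higher in high than in low. For sgRNAs 15, 16 and 22 the ratio of high to low was 0.983 and 1.05. The 19 and the 3 were separated with the same sorted reads, so the contrast of their ratios is a description. Over all 22 the ratio of sums was 1.85 and 1.89.

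On the log2(scaled reads + 1) scale the EGFP entry was higher in high than in low by a mean of 1.97 (SE 0.11, 95% confidence interval 1.72 to 2.21, n = 2 screens, limma adjusted p = 4.32e-07), with 1.86 in replicate 2 and 2.07 in replicate 3. This was a 3.91-fold difference of geometric means. With the low libraries that held no read of sgRNAs 7, 9 and 17 set to the floor of 3 counts, the mean was 1.80, with 1.62 (1.615) and 1.99 in the 2 screens. Of the 18659 entries 5.25% were called higher in this comparison, and EGFP ranked 98 from the highest. With the sgRNAs without a target subtracted, the difference was 2.08 (SE 0.11, limma adjusted p = 1.67e-05; 6.83% of entries called higher), and with AAVS1 subtracted it was 1.88 (SE 0.13, limma adjusted p = 1.18e-05; 3.91% of entries called higher). The log2 differences of the control entries themselves were -0.10 for nontargeting, -0.14 for LacZ, -0.05 for luciferase and 0.08 for AAVS1.

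Of the 20 EGFP sgRNAs that passed the filter on low counts, edgeR called 12 higher in high than in low and none lower, against 2.95% of all sgRNAs tested that were called higher. The 12 were sgRNAs 1, 2, 6, 8, 12, 13, 14, 17, 18, 19, 20 and 21. The sgRNAs 7 and 9 did not pass the filter. It asked for enough reads in as many libraries as a population has, so an sgRNA could pass through high alone. This was so for sgRNA 17, with 46 and 21 raw reads in high, 9 and 5 in medium and 0 in low. Without the filter all 22 were tested and the same 12 were called. Among the 275 tested sgRNAs without a target none was called higher and 3 were called lower, and among 47 tested AAVS1 sgRNAs the numbers were the same. Both high libraries exceeded both low libraries for 17 of the 22 EGFP sgRNAs, against 19.5% of all sgRNAs. Fewer than 12 were called when any 1 library of high or low was left out. Such a fit has 1 library in that population, and it called fewer of all sgRNAs too. The loss is therefore not particular to the EGFP sgRNAs.

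In sgRNA 17 low held no read in either screen, so its difference between high and low rests on a floor (edgeR adjusted p = 0.00487). With low set to a floor of 3 counts per library, high was 12.5 times the floor in replicate 2 and 7.57 times in replicate 3. The error of the reads in high is not included, so these ratios are not strict lower limits. The largest difference measured on both sides was that of sgRNA 6, which was recovered at 31.9% of T0 and for which high exceeded low by 4.54 and 3.73 on the log2 scale (edgeR adjusted p = 4.99e-14). High held 53.6% and 57.0% of its recovered reads and low 2.00% and 3.92%. For sgRNA 7, which was not tested, high held 35 and 7 raw reads and low 0 and 2, and high was 9.52 times the same floor in replicate 2. For sgRNA 2 the log2 difference was 2.60 and 3.72 (edgeR adjusted p = 0.000259). The sgRNAs 13, 14 and 18, which had the most reads in low (mean of the screens) among the 19 that fell, had differences of 1.03 and 2.10, of 1.33 and 0.70, and of 2.01 and 2.11, with edgeR adjusted p = 7.34e-05, 1.86e-07 and 1.49e-08. A difference between high and low was thus present in sgRNAs with moderate recovery as well as in those that nearly disappeared.

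At the other end, high and low differed by -0.02 and 0.13 for sgRNA 15, by -0.08 and 0.26 for sgRNA 16 and by 0.08 and -0.52 for sgRNA 22 (edgeR adjusted p = 0.941, 0.93 and 0.81). These were the same 3 sgRNAs that were not called lower than T0. The sgRNA 9, with 4 and 5 raw reads in high and 0 and 8 in low, was too rare to be tested. The sign was also opposite between screens for sgRNA 5, at -1.15 and 3.47 (edgeR adjusted p = 0.826), where low replicate 2 held 21 raw reads and low replicate 3 held 2. The tested sgRNAs 3, 4, 10 and 11 had more reads in high than in low in both screens but did not pass the threshold, with edgeR adjusted p = 0.744, 0.063, 0.0897 and 0.317. Across the 22 sgRNAs the log2 differences of high from low in the 2 screens had r = 0.47 and rho = 0.41, in which the low libraries without a read enter through the pseudocount of 1. Over the same sgRNAs the log2 recovery and the share of recovered reads in high had r = -0.52 and rho = -0.57. Its relation to the share in low was r = 0.60 and rho = 0.59. These correlations are descriptions, and both measures contain the same sorted reads.

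Medium lay between low and high. The EGFP entry was higher in high than in medium by 1.00 on the log2 scale (SE 0.11, limma adjusted p = 0.018), with 0.85 and 1.16 in the 2 screens, and 1.7% of entries were called higher. It was lower in low than in medium by -0.96 (SE 0.10, limma adjusted p = 0.00205), with -1.01 and -0.92, and 1.54% of entries were called lower. When low and high were added and medium subtracted with a weight of 2, the remaining log2 difference was 0.04 (SE 0.19, 95% confidence interval -0.41 to 0.49, limma adjusted p = 0.978), with -0.16 in replicate 2 and 0.24 in replicate 3, and 0.0375% of entries were called. The distances of high and low from medium were therefore not distinguishable within this interval. The call of low against medium was lost among sgRNAs with a mean of at least 50 reads, where the difference was -0.43 (limma adjusted p = 0.0513). The EGFP sgRNAs with that many reads over low and medium were 13, 14, 15, 16, 18, 21 and 22. Their values were -0.91, -0.53, -0.06, 0.03, -0.57, -1.12 and 0.12 (means of the screens). The sgRNAs 15, 16 and 22, which were not called lower than T0, thus weighed more in that mean than among all EGFP sgRNAs.

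Single sgRNAs rarely passed the threshold in the comparisons with medium. High exceeded medium for 18 of the 22 in both screens, and edgeR called 3 higher, sgRNA 1 (adjusted p = 0.00104), sgRNA 18 (0.000265) and sgRNA 6 (0.0468), against 1.13% of all sgRNAs. An unadjusted edgeR p under 0.05 was reached by 11 of the 20 tested. It was reached by 25 of 275 tested sgRNAs without a target and by 2 of 47 AAVS1 sgRNAs. The share of all sgRNAs at this unadjusted threshold was not counted. Low was below medium for 13 of the 22 in both screens, and edgeR called sgRNA 6 lower (adjusted p = 2.6e-05), against 0.753% of all sgRNAs. An unadjusted p under 0.05 was reached by 8, beside 17 of 275 sgRNAs without a target and 7 of 47 AAVS1 sgRNAs. The order high, medium, low held in both screens for 12 of the 22. The shares of all sgRNAs with these orders were not counted, so 18, 13 and 12 of the 22 are descriptions. For low plus high against medium edgeR called 0 of the 20, against 0.0776% of all sgRNAs. An unadjusted p under 0.05 was reached by sgRNA 1 alone, beside 19 of 275 sgRNAs without a target and 6 of 47 AAVS1 sgRNAs. DESeq2 called 0, with 1 at an unadjusted p under 0.05, but gave no adjusted p for 12 of the 22. Fewer EGFP sgRNAs were called higher in high than in medium when any 1 library of high or medium was left out. Such a fit has 1 library in that population, and it called fewer of all sgRNAs too. The call of sgRNA 6 in low against medium was lost without low replicate 2, where calls over all sgRNAs were also fewer.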

How the data were processed

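The authors counted reads per sgRNA with MAGeCK and deposited the counts, which were not normalized and were given per sequencing lane. The 4 lanes of each library were summed. Columns were matched to samples by title, since for 2 lanes of the medium population the description named the high population. A further 4 columns matched no sample and were not used. The sgRNA sequences were not used here.

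To compare libraries, counts were multiplied by the mean library total over their own. For each of the 18659 entries, the mean over its sgRNAs of log2(scaled reads + 1) was compared within a screen, and the 2 differences were tested against 0 with limma 3.58.1 (lmFit and eBayes). This follows the study's methods up to the test, with the screen as a block. The study then removed RKO core-essential genes from its hits, which was not done here. The shares of entries called here are therefore not its hit list. Single sgRNAs were tested on the counts with edgeR 4.0.16 (TMM, filterByExpr with a minimum count of 10, quasi-likelihood test, screen as a block) over 74739 sgRNAs for the 6 sorted libraries and 74847 for all 8. In the comparison of all sorted cells with T0, high, medium and low were weighted 0.25, 0.5 and 0.25. P-values were adjusted by Benjamini-Hochberg over all entries or all sgRNAs tested, with a threshold of 0.05. P-values rest on n = 2 screens and on spread borrowed from all entries (limma) or all sgRNAs (edgeR). In limma the borrowed spread counted as 10.2 degrees of freedom for high against low and 10.1 for sorted cells against T0. With the sgRNAs without a target subtracted, it counted as 20.9 for the T0 comparison. The p-values therefore do not measure the spread of the 2 screens alone. Counts were also simulated for high against low, with 200 of 18659 entries changed. There limma called 100% of entries changed by a log2 of 1. For single sgRNAs edgeR called 85.8% of those changed by 1 and 100% of those changed by 2. The changed sgRNAs were those of human genes at their own mean depth, with a shared dispersion and no difference between screens. These rates do not carry over to the EGFP sgRNAs, whose medians in low were 16 and 10 raw reads.

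The reads of every library are given for the 4 sgRNAs with the largest and the 4 with the smallest difference between high and low, those past the threshold against T0 and those with opposite signs in the 2 screens, which together were all 22. The members, the lists and the comparisons were chosen with earlier results of these data known. Alternatives were pseudocounts, filters, normalization, DESeq2 1.42.0, fits without the block and leaving out each library. The separate comparisons of high, medium and low with T0, the subtraction of controls from the T0 comparison, and the floor for low libraries without a read, were chosen after the data were seen.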

Additional observations from a re-analysis of the deposited data

How the results depend on the processing

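The difference of the EGFP entry between high and low ranged from 1.38 to 2.08 on the log2 scale over 8 alternatives and that between sorted cells and T0 from -3.54 to -2.60 over 9, with every call kept by limma. In the fit with no replicate block the difference between high and low was 1.97 (SE 0.13, limma adjusted p = 0.0001) and edgeR called 11 sgRNAs in place of 12, with sgRNA 1 losing its call (edgeR adjusted p = 0.0275 with the block and 0.0594 without). For high against medium, edgeR called 2 in place of 3 without the block, and for medium against T0 18 in place of 19. Deviations of libraries of the same screen correlated at 0.0745 to 0.129. The difference of low from medium lost its call among sgRNAs with at least 50 reads (-0.43, limma adjusted p = 0.0513), where sgRNAs 15, 16 and 22 weighed more. The uncalled difference of low plus high from medium turned to -0.16 as a median over sgRNAs, and it ranged from -0.16 to 0.24 when either screen was left out. The cause of these changes in low plus high against medium was not tested.

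Leaving out 1 library at a time, edgeR called 5 to 12 sgRNAs higher in high than in low, 0 to 3 higher in high than in medium, 0 to 1 lower in low than in medium, and 17 to 19 lower in sorted cells than at T0. Other settings gave 11 to 12, 2 to 3, 1 and 19. For high against low, 208 of 239 values of single sgRNAs kept their direction and call, 26 lost the call and 5 turned. Leaving out each library in turn, the fitted log2 difference ranged from -0.67 to 3.54 for sgRNA 5, from -0.031 to 0.153 for sgRNA 15, from -0.085 to 0.263 for sgRNA 16 and from -0.61 to 0.16 for sgRNA 22, and it was -0.64 for sgRNA 5 without high replicate 3. None of these 4 was called in the fit to all 6 libraries. Against T0, 302 of 308 values kept direction and call. Few reads limit the values of EGFP sgRNAs in low most, where 10 and 11 of them had 10 or fewer reads.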
